A study of Mus musculus with 24 samples.

Results

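The AP-1 genes of the Fos and Jun families were followed in TM3 cells, an established mouse cell line of Leydig origin, after a nanosecond pulsed electric field (nsPEF). The family holds 7 genes, Fos, Fosb, Fosl1, Fosl2, Jun, Junb and Jund. They were found by matching the RefSeq transcript of each probe on a one-colour Agilent expression array to these symbols, which gave 11 of the 56605 probes and 7 of the 23787 genes with a symbol. Fosb, Fosl2, Junb and Jund had 2 probes each and the other genes had 1. Cells in suspension were either sham-exposed (S) or given 80 pulses of 60 ns at 14 kV/cm within 180 s (E), and RNA was taken 0, 4 or 24 h later. The 6 groups S0, E0, S4, E4, S24 and E24 held 4 replicates each, 24 arrays in all. Cells of every group, sham included, had been washed in cold buffer, strained and placed in an electroporation cuvette. No untouched culture was analysed here. The study calls the replicates biological and states that the assays of a replicate used 1 suspension of cells, but the labels do not tie the array numbers to suspensions, so the p-values measure the spread between these samples.

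AP-1 is a family of transcription factors that bind DNA as pairs through a basic leucine zipper. Jun proteins pair with each other or with a Fos protein, whereas Fos proteins need a Jun partner. Fos, Fosb, Jun and Junb are classical immediate-early genes, whose RNA appears within minutes of serum, stress or MAP kinase signalling and is short-lived, whereas Fosl1 (the Fra-1 protein) and Fosl2 (Fra-2) usually follow later and Fosl1 is itself a target of AP-1. Jund is the member that resting cells tend to keep. In Leydig cells AP-1 factors are known as regulators of genes of steroid synthesis.

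The sequence just before the RefSeq start is shown for Fos, Fosb, Jun and Junb, the 4 immediate-early members, which fell in these data, as Jund also did. The table of promoter windows (build GRCm38.p6) held 6 of the 7 genes. The 130 bases upstream of the start are shown 5′ to 3′ on the strand of the gene, with each copy of TGACG in capitals. The table takes 1 start a gene, and that of Fosb lies inside the outer end of the gene as positioned below, so part of its stretch, with the marked TGACG, falls within the annotated gene.
Fos, chr12:85473760-85473889, plus strand: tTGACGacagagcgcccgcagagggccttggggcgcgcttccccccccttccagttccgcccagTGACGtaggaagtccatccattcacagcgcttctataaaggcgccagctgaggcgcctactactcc
Fosb, chr7:19310046-19310175, minus strand: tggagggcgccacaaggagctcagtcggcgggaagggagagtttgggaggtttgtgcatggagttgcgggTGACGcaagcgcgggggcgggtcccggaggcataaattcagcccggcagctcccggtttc
Jun, chr4:95052223-95052352, minus strand: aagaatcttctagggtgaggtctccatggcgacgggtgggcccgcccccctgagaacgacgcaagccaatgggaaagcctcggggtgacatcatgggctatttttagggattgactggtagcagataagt
Junb, chr8:84978749-84978878, minus strand: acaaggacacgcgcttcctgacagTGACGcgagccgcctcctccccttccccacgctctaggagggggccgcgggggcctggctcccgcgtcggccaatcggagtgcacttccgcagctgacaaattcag
Both strands of the 250 bases before the start were searched for the CArG box, the CRE (TGACGTCA) and the AP-1 site (TGANTCA), and none of the 6 windows held an exact match. Copies farther upstream were not searched for. Nor were copies with a changed base, such as tgacatca in the stretch of Jun, so the search does not show that a gene lacks such sites. Of all 32851 windows of that length, 1.47% held a CArG box, 1.55% a CRE and 6.75% an AP-1 site. TGACG, the 5 bases that open the CRE and so lie inside every copy of it, was added after the sequences had been seen. It stood 2 times in the window of Fos, once each in those of Fosb and Junb, and not in those of Fosl2, Jun and Jund, against 17.8% of all windows with at least 1 copy.

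Each value is the log2 processed signal minus the log2 75th percentile of that array's transcript spots, so that 0 is a spot at that percentile and 1 unit is a factor of 2. They are levels of a probe and are not compared between genes. In the 2 groups at 0 h, Fos, Fosb, Jun, Junb and Jund stood at their highest levels. By 4 h these 5 genes had fallen in sham and in nsPEF cells, Fosl1 and Fosl2 had risen, and the largest of the changes were those of Fos, 158-fold lower in sham and 141-fold lower in nsPEF. The signal of a lysate does not tell a lower level in each cell from fewer cells with the transcript. The 8 arrays of a time point shared 1 slide. Handling before harvest differed with time as well. The study describes a long preparation before exposure, by detaching, spinning, filtering and a new medium, and a quick harvest at 4 and 24 h. It proposes that high Fos and Jun at 0 h, in sham and nsPEF cells alike, could be a response to that preparation. This was not tested here. Time after treatment, slide and handling cannot be told apart in any difference between time points.

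**Figure D1:**
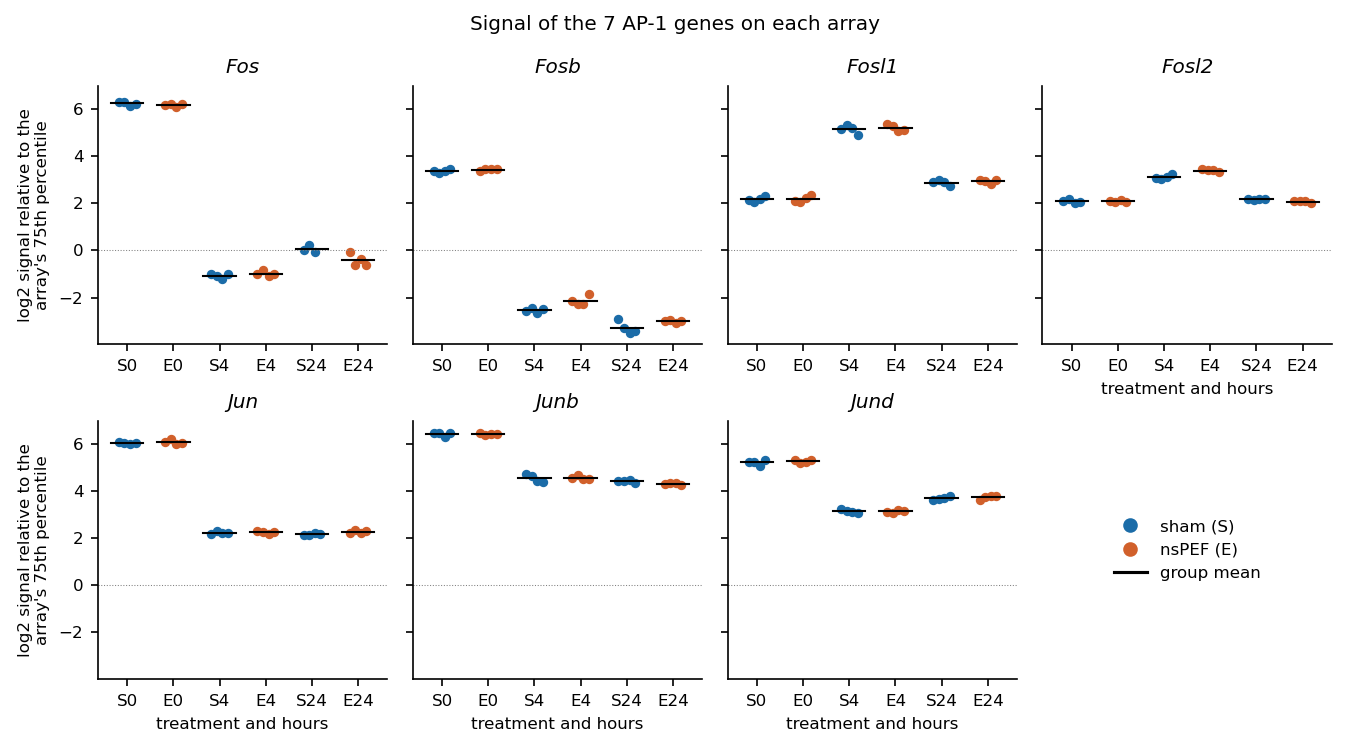
Each panel shows 1 gene by its probe with the highest mean signal; the vertical axis is log2 signal over the 75th percentile of its array, points are single arrays of sham (S, blue) and nsPEF (E, orange) cells at 0, 4 and 24 h, and black lines are group means. Fos, Fosb, Jun, Junb and Jund were highest at 0 h and Fosl1 and Fosl2 at 4 h, and Fos has 3 points in S24 because 1 spot was marked by the scanner software.

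Fos encodes c-Fos, the founding member and the one with a strong activation domain. The gene lies at chr12:85473890-85477274 in GRCm38.p6, the build of all positions given here. Its probe read 6.30, 6.30, 6.11 and 6.18 on the 4 sham arrays at 0 h and 6.16, 6.19, 6.09 and 6.19 on the nsPEF arrays. At 4 h the sham arrays read -0.997, -1.08, -1.22 and -1.02 and the nsPEF arrays -1.02, -0.82, -1.09 and -0.99. Every array at 4 h lay more than 6 units under every array at 0 h. From S0 to S4 Fos fell by 7.30 on the log2 scale (SE 0.10, adjusted p = 3.2e-20 by limma), the largest fall among the 37684 probes tested. From E0 to E4 it fell by 7.14 (SE 0.10, adjusted p = 3.2e-20), also the largest. At 24 h the level was higher again than at 4 h, by 1.14 in sham (SE 0.11, adjusted p = 3.3e-08) and by 0.57 in nsPEF (SE 0.10, adjusted p = 8.7e-05), and was still 71.5-fold and 94.8-fold under that at 0 h. On the deposited log2 values the later difference in nsPEF did not pass (0.54, adjusted p = 0.054). In order of level the groups ran from S0 and E0, which did not differ beyond their spread, through S24 and E24 to E4 and S4, which did not differ beyond their spread either.

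Fosb encodes FosB, and a shorter product of the gene, delta-FosB, lacks part of the carboxy-terminal activation domain. Fosb lies at chr7:19302696-19310118. On its brighter probe the sham arrays read 3.38, 3.29, 3.35 and 3.43 at 0 h, -2.56, -2.44, -2.64 and -2.50 at 4 h, then -2.92, -3.30, -3.48 and -3.40 at 24 h. The nsPEF arrays read 3.35, 3.45, 3.43 and 3.43, then -2.14, -2.26, -2.28 and -1.86, then -3.01, -2.95, -3.07 and -2.99. The groups of different time points did not overlap within either treatment, as from 38.3 to 57.6% of all probes did not in the same comparisons. Fosb fell to 4 h, with a difference of -5.90 among sham cells and -5.55 among nsPEF cells (SE 0.10 for each, adjusted p = 5.2e-20 and 1.1e-19), the 4th and the 3rd largest falls of all tested probes. Unlike Fos it was lower again at 24 h than at 4 h, by 0.74 in sham (adjusted p = 1.7e-06) and by 0.87 in nsPEF (adjusted p = 1.8e-07). With spike-in scaling the sham difference was -0.13 and did not pass (adjusted p = 0.32). The dimmer Fosb probe was well above background on all 8 arrays at 0 h, with means of -2.13 ± 0.052 and -2.09 ± 0.25 (SD, n = 4), and on 1 of the 16 later arrays. For that probe the fold is a bound: at least 9.78-fold lower in S24 than in S0, at least 5.58-fold lower in E4 than in E0 and at least 5.84-fold lower in E24 than in E0, with measured means of -7.55, -6.70 and -6.76 in these 3 later groups, taken as the mean of S0 or E0 against the lowest signal well above background on each later array.

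Fosl1 (chr19:5447698-5455938), whose product has no activation domain of the c-Fos kind, moved the other way. Its sham arrays read 2.13, 2.07, 2.16 and 2.30 at 0 h, 5.16, 5.30, 5.18 and 4.90 at 4 h, then 2.89, 2.97, 2.88 and 2.73 at 24 h. Its nsPEF arrays read 2.11, 2.04, 2.22 and 2.33, then 5.34, 5.26, 5.04 and 5.08, then 3.00, 2.94, 2.82 and 2.99. The rise to 4 h was 2.97 in sham (7.84-fold, SE 0.09, adjusted p = 2.3e-16) and 3.01 in nsPEF (8.03-fold, SE 0.09, adjusted p = 1.7e-16), and ranked 134th and 150th of all probes by size upward. Most of it was gone at 24 h, when Fosl1 stayed 0.70 (sham, adjusted p = 3.3e-06) and 0.76 (nsPEF, adjusted p = 9.8e-07) over the 0 h level. Spike-in scaling, under which the median of all probes also moved up at 24 h, made these differences 1.39 and 1.22. The S and E groups of each time overlapped.

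Fosl2 (chr5:32136472-32157840), the other Fra gene, had a smaller difference between 0 h and 4 h. Its brighter probe read 2.09 ± 0.085 in S0, 3.10 ± 0.087 in S4 and 2.17 ± 0.027 in S24, and 2.08 ± 0.042, 3.38 ± 0.053 and 2.06 ± 0.038 in E0, E4 and E24 (SD, n = 4). The rise from 0 h to 4 h was 1.01 in sham (SE 0.05, adjusted p = 3.3e-13) and 1.30 in nsPEF (SE 0.05, adjusted p = 6.1e-15). At 24 h the difference from 0 h did not pass the test in sham (0.079, 95% interval -0.023 to 0.18, adjusted p = 0.22) or in nsPEF (-0.017, interval -0.12 to 0.085, adjusted p = 0.81). The sham difference passed with quantile normalization (0.12, adjusted p = 0.048) and with spike-in scaling (0.76, adjusted p = 5.7e-08), and the nsPEF difference turned to 0.44 with spike-in scaling (adjusted p = 8e-05). The dimmer Fosl2 probe, also well above background on all 24 arrays, gave 0.22 from S0 to S4 (adjusted p = 0.12) and 0.35 from E0 to E4 (adjusted p = 0.019), so that both probes had the same sign and different sizes.

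Jun encodes c-Jun, the partner that Fos proteins most often bind and the substrate that gave the Jun N-terminal kinases their name. The gene lies at chr4:95049036-95052222. On the sham arrays it read 6.08, 6.02, 5.98 and 6.01 at 0 h, 2.16, 2.30, 2.21 and 2.22 at 4 h, then 2.12, 2.15, 2.19 and 2.18 at 24 h. On the nsPEF arrays it read 6.08, 6.17, 5.98 and 6.03, then 2.31, 2.27, 2.17 and 2.24, then 2.22, 2.34, 2.21 and 2.28. The 16 later arrays spanned from 2.12 to 2.34, less than 1 unit in all, and the 8 arrays at 0 h lay far over them. Jun fell by 3.81 from S0 to S4 (14.0-fold, SE 0.05, adjusted p = 7e-22) and by 3.82 from E0 to E4 (14.1-fold, SE 0.05, adjusted p = 4.8e-22). Between 4 h and 24 h the difference did not pass the test in sham (-0.060, 95% interval -0.16 to 0.039, adjusted p = 0.29) or in nsPEF (0.017, interval -0.082 to 0.12, adjusted p = 0.79).

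Junb (chr8:84976909-84978748), often a weaker activator than c-Jun, and Jund (chr8:70697739-70700616) were the other members that fell. Junb stood at 6.40 ± 0.090 in S0, 4.53 ± 0.17 in S4 and 4.40 ± 0.048 in S24 (SD, n = 4). In E0, E4 and E24 its means were 6.41 ± 0.039, 4.56 ± 0.076 and 4.29 ± 0.040 (SD, n = 4). It fell by 1.88 from S0 to S4 and by 1.86 from E0 to E4 (SE 0.07 for each, adjusted p = 3.3e-15 and 3.6e-15). The dimmer Junb probe fell by 2.03 and by 1.80 over the same steps. Between 4 h and 24 h Junb fell by a further 0.26 in nsPEF (adjusted p = 0.0021), a direction that turned to 0.12 with spike-in scaling, while the sham difference of -0.13 (adjusted p = 0.11) did not pass.

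Jund had probes for 2 RefSeq transcripts. The brighter read 5.20 ± 0.098 in S0, 3.13 ± 0.082 in S4 and 3.68 ± 0.074 in S24, and 5.25 ± 0.071, 3.12 ± 0.064 and 3.73 ± 0.074 in E0, E4 and E24. The other read 4.87 ± 0.017, 3.25 ± 0.090 and 3.64 ± 0.082 in sham and 4.78 ± 0.027, 3.16 ± 0.079 and 3.74 ± 0.13 in nsPEF (SD, n = 4 throughout). Both fell to 4 h, by 2.07 and 1.63 in sham (SE 0.06, adjusted p = 1.3e-16 and 6.6e-15) and by 2.12 and 1.62 in nsPEF. Both then rose between 4 h and 24 h, by 0.55 and 0.39 in sham and by 0.61 and 0.59 in nsPEF (all 4 adjusted p at or under 1.4e-05), and remained under the 0 h level.

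**Figure D2:**
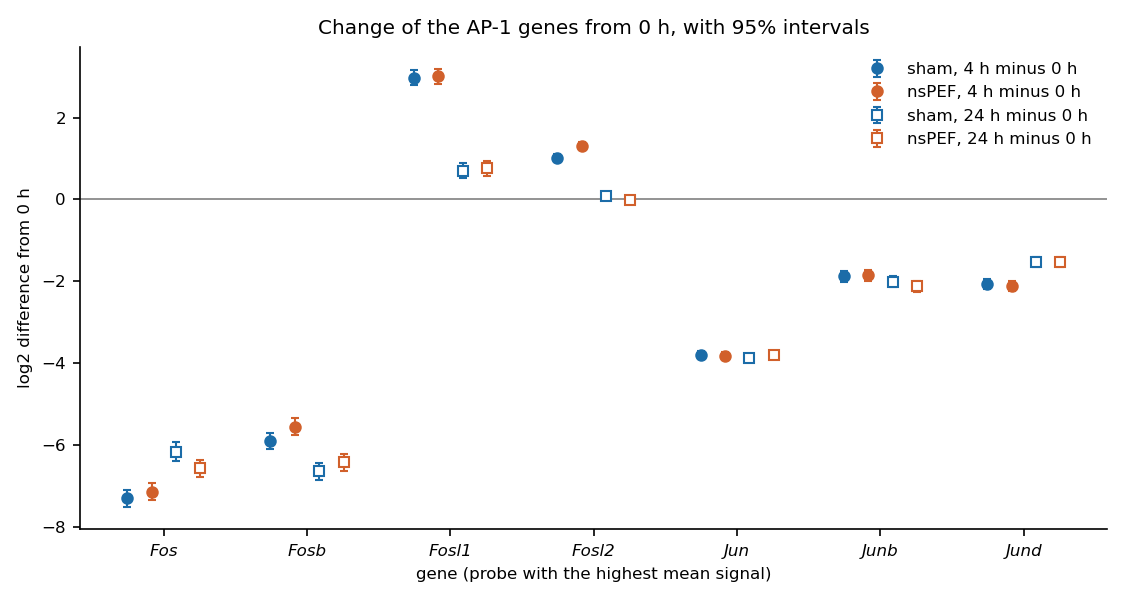
Differences of log2 signal from 0 h on the vertical axis for the 7 genes, within sham (blue) and within nsPEF (orange), at 4 h (filled circles) and 24 h (open squares); bars are 95% intervals of the limma fit, which rests on 4 arrays a group and on 3 for Fos in S24. Fosl1 and Fosl2 lie over 0 at 4 h, and Fos, Fosb, Jun, Junb and Jund lie under 0 at both times in both treatments.

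Counted by gene, all 7 members passed the test between 0 h and 4 h in sham, 2 higher and 5 lower, where 59.4% of all tested probes passed in either direction. In nsPEF all 7 passed too, with the same split (background 61.3%). Between 0 h and 24 h 6 passed in sham (1 higher, 5 lower; background 36.7%) and 6 in nsPEF (1 higher, 5 lower; 42.6%), Fosl2 being the exception in each. Between 4 h and 24 h 5 passed in sham (2 higher, 3 lower; 57.6%) and 6 in nsPEF (2 higher, 4 lower; 56.7%). Counted by gene as the members were, the shares of all genes were 65.8, 67.8, 38.9, 46.3, 65.4 and 63.8% in the same order. From S0 to S4, 29.9% of all genes were higher and 35.9% lower. With backgrounds of this height a count alone says little of the family, and the sizes say more. The median difference from S0 to S4 was -2.07 over the 7 genes and -0.029 over all tested probes. Only 0.00265% of the tested probes had a larger difference than Fos in either direction, 0.0186% than Fosb, 0.234% than Jun and 0.701% than Fosl1, while 18.0% had a larger one than Fosl2.

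**Figure D3:**
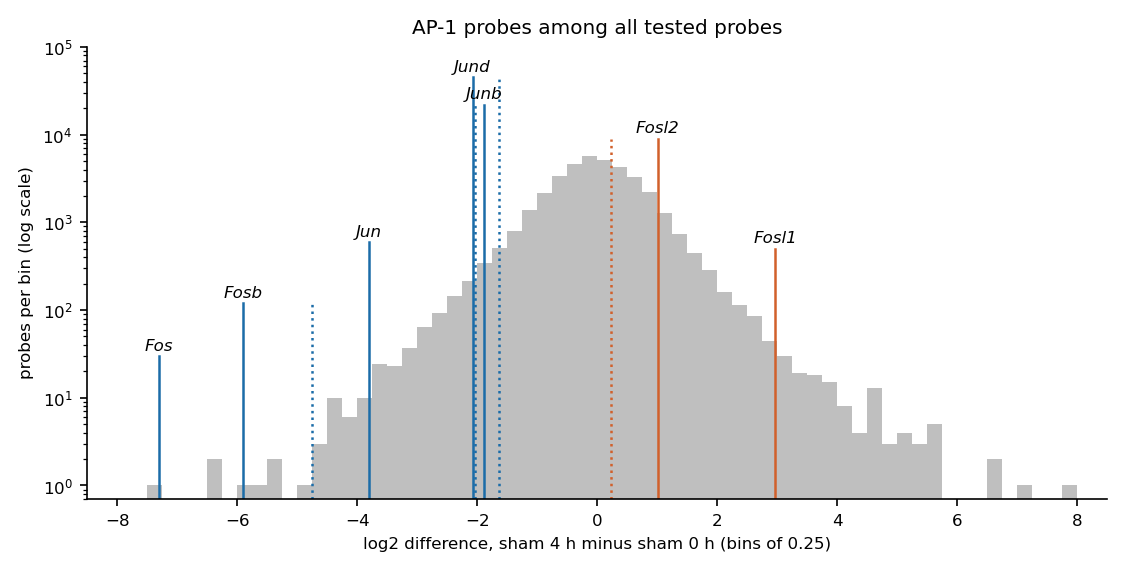
Histogram of the log2 difference from S0 to S4 over all 37684 tested probes (horizontal axis, bins of 0.25; vertical axis, probes per bin on a log scale), with the 11 AP-1 probes as vertical lines, solid for the probe that stands for the gene and dotted for the dimmer one; line heights carry no value. Fos lies at -7.30, the lowest of all, and Fosl1 at 2.97.

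The comparison of nsPEF with sham cells of the same time point asks what the pulses added. At 0 h none of the 7 genes passed the test by limma (0.111% of all probes did), none had an unadjusted p under 0.05, and none of the 14 alternatives in the analysis called one. The differences at 0 h ran from -0.068 for Fos (95% interval -0.28 to 0.15) to 0.054 for Fosb (interval -0.15 to 0.26). No gene, counted by its brighter probe, was free of overlap between S0 and E0, against 8.57% of all probes, while the other Jund probe was (difference -0.092, adjusted p = 0.69).

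At 4 h 2 of the 7 genes passed, both higher after nsPEF, with a background of 2.88% of all probes and 3.46% of all genes. Fosb was 0.40 higher on the log2 scale (1.32-fold, SE 0.10, adjusted p = 0.031 by limma). Its nsPEF arrays lay between -2.28 and -1.86 and its sham arrays between -2.64 and -2.44, so the groups did not overlap (two-sided p = 0.0286 by an exact permutation of the arrays, which with 4 against 4 can give none smaller). Fosl2 was 0.28 higher (1.22-fold, SE 0.05, adjusted p = 0.0061 by limma), at 3.31 to 3.43 against 3.01 to 3.22, again without overlap and with the same exact permutation p. These were the 2 members without overlap at 4 h, where 13.8% of all probes had none. Fitted by limma on the 8 arrays of 4 h alone, neither passed (adjusted p = 0.14 for Fosb and 0.10 for Fosl2). Fosb was also lost with quantile normalization (0.25, adjusted p = 0.13), array quality weights (adjusted p = 0.080) and the mean of its probes (adjusted p = 0.33). The adjusted p of Fosb was 0.073 and 0.078 without replicate 1 or 3 of S4, and 0.091 without replicate 4 of E4, where the difference was 0.31. Fosb was called in 21 of the 28 settings that left out arrays, with an adjusted p of up to 0.16 by limma. Among the losses were those without replicate 1, 2 or 3 of all groups. Its dimmer probe gave 0.18 with both groups near background (adjusted p = 0.79). The dimmer Fosl2 probe gave 0.22 (adjusted p = 0.32), with overlap. Fos, Fosl1, Jun, Junb and Jund differed by between -0.0050 (Jund) and 0.098 (Fos), and the widest of their 95% intervals, that of Fos, ran from -0.11 to 0.31.

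At 24 h 1 of the 7 passed, with a background of 4.84% of all probes and 5.87% of all genes. It was Fos, 0.48 lower after nsPEF (1.39-fold, SE 0.11, adjusted p = 0.021 by limma). The sham arrays read 0.028, 0.24 and -0.080 and the nsPEF arrays -0.077, -0.61, -0.35 and -0.62, so that 1 nsPEF array lay inside the sham range (exact permutation test, 3 against 4 arrays, two-sided p = 0.0857). The Fos spot of replicate 1 of S24 had been marked as not uniform or as an outlier by the scanner software and was left out. Its processed signal was 1553, against 396 to 533 on the other 3 sham arrays. With marked spots kept the difference was -0.87 (adjusted p = 0.036), so that single spot moved the value by more than 1.5 times. The call was lost with normexp (-0.35, adjusted p = 0.058), with spike-in scaling (adjusted p = 0.051) and in the limma fit of these 2 groups alone (adjusted p = 0.18). Without replicate 2 or 3 of S24, or replicate 2 or 4 of E24, the adjusted p of Fos lay between 0.058 and 0.10. Fos was called in 21 of the 28 settings that left out arrays, with an adjusted p of up to 0.22 by limma. Among the losses were those without replicate 2, 3 or 4 of all groups. Jun, Junb and Fosl2 did not overlap between S24 and E24, as 14.2% of all probes did not, but their differences of 0.10, -0.11 and -0.10 had adjusted p of 0.20, 0.36 and 0.22 by limma. Fosb differed by 0.27 (95% interval 0.066 to 0.47, adjusted p = 0.11 by limma), and by 0.39 without replicate 1 of S24, with an adjusted p of 0.016.

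**Figure D4:**
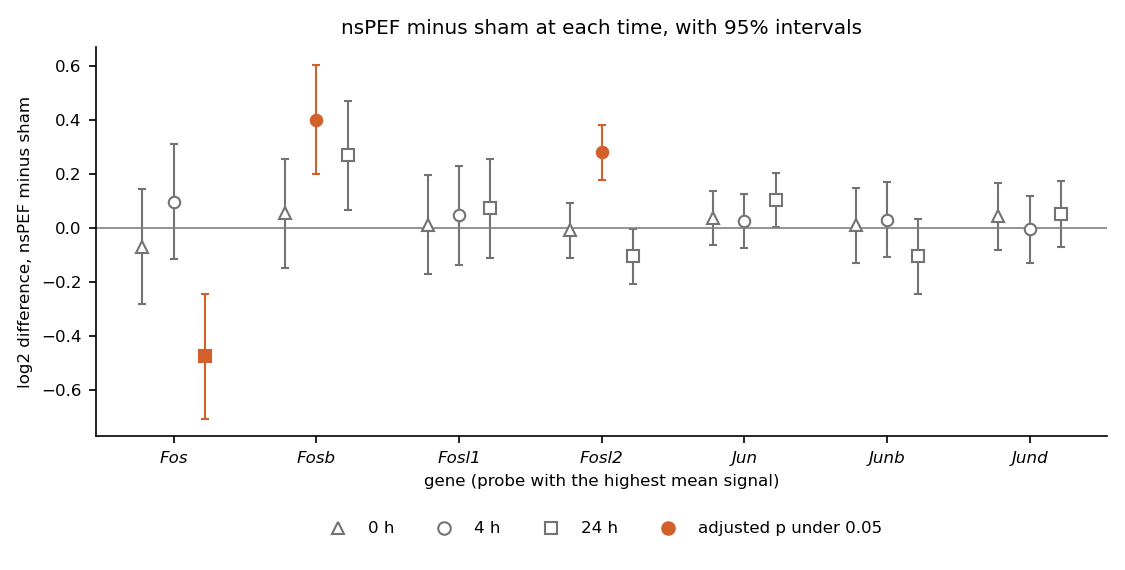
Difference of log2 signal, nsPEF minus sham, on the vertical axis for the 7 genes at 0 h (triangles), 4 h (circles) and 24 h (squares), with 95% intervals of the limma fit; filled orange marks have an adjusted p under 0.05. Fosb and Fosl2 at 4 h lie over 0 and Fos at 24 h lies under 0, and the other 18 differences did not pass.

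The difference between treatments was tested for change over time by the interaction of treatment with time. Of the 7 genes 1 passed, Fosl2 (adjusted p = 0.028; 0.356% of all probes passed). Its rise from 0 h to 4 h was 0.29 larger in nsPEF than in sham (SE 0.07), and its change from 0 h to 24 h differed by -0.095 (SE 0.07). The call was lost under 4 of the 13 alternatives that could give it, and on leaving out replicate 1 or 3 of E4, 1, 2 or 3 of S4, or 1 or 3 of S24 (adjusted p of 0.052 to 0.059). Without replicate 1, 2 or 3 of all groups it was lost too (adjusted p of 0.18 to 0.25). The dimmer Fosl2 probe had an interaction adjusted p of 0.88. Fos followed with an adjusted p of 0.12 and Fosb with 0.32, so for these the difference between time points in the response to nsPEF did not pass.

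Array quality moved with treatment. The 12 sham arrays had 57.5 to 62.1% of their transcript spots well above background and the 12 nsPEF arrays 51.2 to 57.2%, without overlap. The nsPEF arrays had 62 to 443 spots that were not uniform and the sham arrays 36 to 112. On each slide the sham arrays filled row 1 and the nsPEF arrays row 2, so treatment and array row cannot be told apart. Centring the values by spot row and signal class left the calls of Fosb and Fosl2 at 4 h and of Fos at 24 h in place, and the interaction of Fosl2 then had an adjusted p of 0.064. Spot rows are rows within an array, so this centring cannot address the row of the array on the slide. At 4 h the 75th percentile used for scaling ran from 451 to 781 in S4 and from 355 to 425 in E4, without overlap. Before scaling, the signals of Fosb were 72.6 to 137.6 in S4 and 74.8 to 97.7 in E4. Those of Fosl2 were 3777 to 7275 and 3513 to 4492, so both genes overlapped. With spike-in scaling 2 genes passed at 4 h as well, but so did 13.4% of all probes, against 2.88% with the percentile. The part of array quality and of the scaling in the differences between nsPEF and sham was not tested.

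The label of the cells was checked against marker genes. Of 15 Leydig cell markers 14 had a probe and 9 were well above background on all 24 arrays, Star, Cyp17a1, Nr5a1 and Gata4 among them, while Lhcgr, Cyp11a1, Hsd3b6 and Hsd17b3 were so on none. Star, Nr5a1 and Gata4 lay under the 75th percentile in every group (-3.66, -2.63 and -3.40 in S0), and the rest of the 9 lay over it. Of 23 markers of Sertoli, myoid, germ, endothelial cells and macrophages, 8 were above background on all arrays (Sox9, Wt1, Acta2, Cnn1, Tnp1, Cd68, Csf1r and Pecam1). Highest of these in S0 were the Sertoli marker Wt1 (4.51) and the myoid marker Acta2 (4.44). Of the 23, 4 (Dhh, Gata1, Cdh5 and Tek) were above background on no array, and 13 could be tested. From S0 to S4, 4 of these 13 were higher and 6 lower, where 29.9% of all genes were higher and 35.9% lower. The sum of the signals of the 13, in units of the 75th percentile, ran from 46.0 to 49.6 in S0, 46.1 to 47.4 in E0, 47.1 to 57.7 in S4, 49.5 to 54.2 in E4, 39.9 to 42.6 in S24 and 39.8 to 40.6 in E24. Within it the Sertoli markers summed to 20.8 to 25.4 in S0 and 11.9 to 15.0 in S4, the myoid markers to 19.5 to 24.9 and 31.6 to 38.7, and the macrophage markers to 2.09 to 2.25 and 3.26 to 3.88. The sum of the 9 Leydig markers ran from 62.9 to 69.6 in S0, 62.2 to 64.8 in E0, 56.1 to 61.5 in S4, 56.6 to 59.0 in E4, 50.5 to 52.9 in S24 and 45.6 to 49.95 in E24. Of these 9, 2 rose and 5 fell from S0 to S4, beside the same shares of all genes. From S0 to S24, 7 of the 9 fell, where 22.7% of all genes fell. At 4 h none of the 13 passed between nsPEF and sham, where 3.46% of all genes passed. At 24 h, beside the difference of Fos, the Leydig marker Pdgfra was lower after nsPEF (-0.23, adjusted p = 0.038), the myoid marker Myh11 was higher (2.10, adjusted p = 0.0081) and the germ cell marker Ddx4 lower (-0.70, adjusted p = 0.031), where 5.87% of all genes passed. At 0 h Myh11 was higher (2.28, adjusted p = 0.037) and the macrophage marker Csf1r lower (-0.57, adjusted p = 0.038), where 0.095% of all genes passed. Myh11 was well above background on no more than 17 of the 24 arrays and Ddx4 on no more than 16. Sham means of Myh11 were -5.14 in S0 and -5.24 in S24, so its differences rest on values near background. The part of other cell types in the results for AP-1 genes was not tested.

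The genes whose pattern was most like that of a member were found by the root mean square difference of the change from S0 over the other 5 groups, a measure taken on single probes of 16842 genes. Nearest to Fos were Lsmem1 (1.18), Fam71a (1.83), Zfp36 (2.30), Nr4a1 (2.48) and Btg2 (2.65). The distances are large, and Fos at -7.30, -7.20, -6.16 and -6.64 in S4, E4, S24 and E24 had no close match. Nearest to Jun were Dusp1 (0.19), which encodes a phosphatase of MAP kinases, Btg2 (0.31), Cxcl2 (0.44), Zfp36 (0.45) and Atf3 (0.52). Nearest to Fosl1 were Krtap1-5 (0.11), Cd44 (0.12), Fhl2 (0.12), Rsbn1 (0.17) and Plaur (0.18). Cd44, a hyaluronan receptor, changed by 3.04, 3.14, 0.54 and 0.63 in S4, E4, S24 and E24, where Fosl1 changed by 2.97, 3.02, 0.70 and 0.77.

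Of 22 listed partner factors with a leucine zipper, 18 could be tested. From S0 to S4, 7 rose and 4 fell, with a median difference of -0.054 against -0.063 over all genes, of which 29.9% rose and 35.9% fell. Atf3, a stress-induced factor that pairs with Jun proteins, fell most (by 3.20, adjusted p = 2.8e-14), before Maf and Batf3 (-0.59 each). The risers were led by the small Maf factor Maff (1.06, adjusted p = 1.4e-11), Atf7 (0.86) and Mafk (0.82). Between nsPEF and sham, 1 of the 18 passed at 4 h, where 3.46% of all genes passed, and 2 at 24 h, where 5.87% passed. Jdp2, a repressor that pairs with Jun, was 0.20 higher at 4 h (adjusted p = 0.043). Maf (-0.42) and Bach2 (-0.40) were lower at 24 h (adjusted p = 0.037 and 0.030).

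Of 26 MAP kinases, their activating kinases and serum response factors, 10 rose and 7 fell from S0 to S4, where 29.9% of all genes rose and 35.9% fell, with a median of 0.056 against -0.063 over all genes. Map2k3 (1.75, adjusted p = 1.5e-15), an activator of p38, Map2k1 (1.41), an activator of ERK, and the ternary complex factor Elk4 (0.87) rose most, and Mapk3 (-1.01), Map2k6 (-0.89) and Map3k5 (-0.68) fell most. Map2k6 was lower after nsPEF at 4 h (-0.26, adjusted p = 0.029) and Map2k2 was 0.23 higher at 24 h (adjusted p = 0.038). Each was the 1 of the 26 that passed at its time, where 3.46% and 5.87% of all genes passed. Of 17 regulators of Fos and Jun protein and mRNA, 8 rose and 6 fell beside the same shares of all genes, with a median of 0.11 against -0.063. Zfp36, which binds AU-rich elements of short-lived mRNAs such as that of Fos, fell most (by 4.46, adjusted p = 8.7e-19), before Ddit3 (-0.59) and Men1 (-0.53). The RNA-stabilising Elavl1 (0.97), the ubiquitin ligase subunit Fbxw7 (0.93) and Zfp36l2 (0.63) rose most. Jdp2, which this list shares with the partner factors, was the 1 of the 17 called between nsPEF and sham at 4 h, where 3.46% of all genes passed.

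Of 34 textbook AP-1 target genes 31 could be tested, and from S0 to S4 24 rose and 6 fell, where 29.9% of all genes rose and 35.9% fell, with a median of 0.82 against -0.063 over all genes. In nsPEF the counts between 0 h and 4 h were the same (all genes 34.5% higher, 33.3% lower) and the median was 0.86, against 0.041 over all genes. The list, like the others, was chosen with earlier results of these data known, so these counts are no independent test. Il1rl1, an interleukin receptor, rose by 5.50 (adjusted p = 7e-22), Plaur, the urokinase receptor, by 3.19 (adjusted p = 4.7e-20) and Cd44 by 3.04 (adjusted p = 2.6e-19). Trp53 (-0.69), the metalloprotease Mmp9 (-0.58) and Vegfa (-0.48) fell most. Between 4 h and 24 h in sham 25 of the 31 fell and 4 rose, where 32.3% of all genes fell and 33.1% rose, with a median of -0.93 against 0.033, and at 24 h the median stood 0.13 over S0. Between nsPEF and sham at 4 h 2 of the 31 passed, both higher (3.46% of all genes passed), among them Hmox1, a haem-degrading stress enzyme (0.25, adjusted p = 0.033). At 24 h 4 passed, all lower (5.87% of all genes passed): Mmp13 (-0.44), Il6 (-0.38), Mmp10 (-0.33) and Spp1 (-0.32), with adjusted p of 0.022, 0.047, 0.017 and 0.027.

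**Figure D5:**
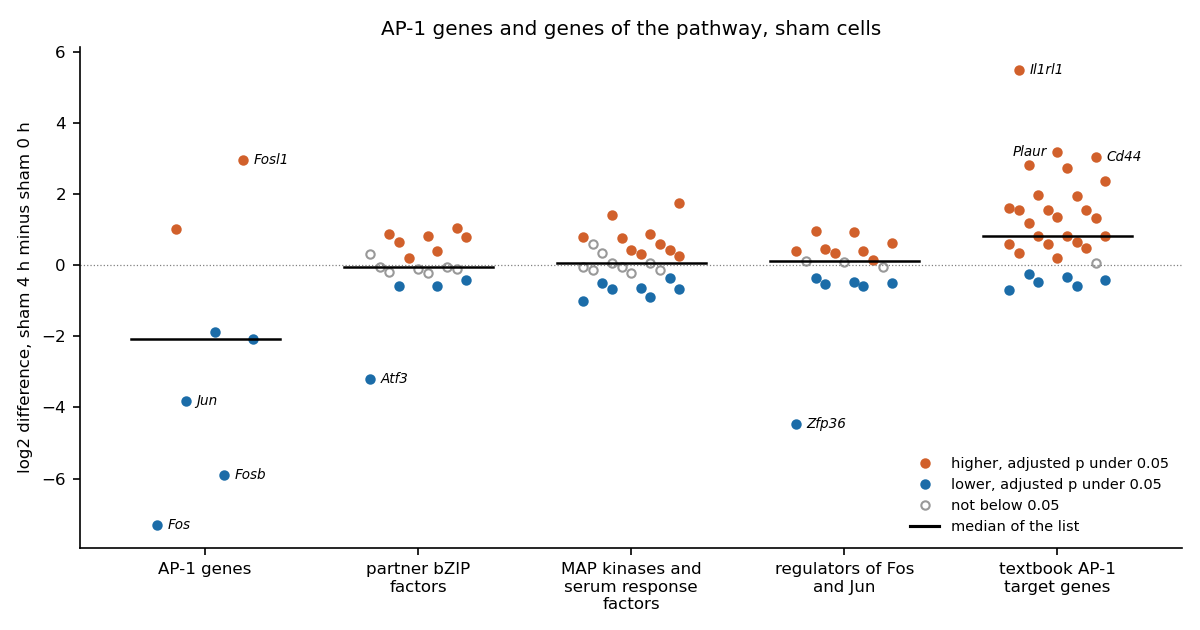
Log2 difference from S0 to S4 (vertical axis) of each tested gene of the AP-1 family and of 4 lists; orange is higher and blue lower at an adjusted p under 0.05, open circles did not pass, and black lines are list medians. The medians of the first 3 lists lie near 0, that of the textbook targets at 0.82 and that of the AP-1 genes at -2.07. Genes and lists were chosen with earlier results of these data known.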

How the data were processed

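Intensity values were those that the authors deposited as scanner output of Agilent Feature Extraction (12.0 in the submitters' notes), with the processed signal background-subtracted and detrended by that software. A deposited table of log2 values, which the authors shifted by percentile and set against the median of all samples, was used as an alternative. The mean of the unmarked spots of a probe was taken as log2 minus the log2 75th percentile of unmarked transcript spots of the array. Percentiles ranged from 293.9 to 780.6 and 51.2 to 62.1% of spots were well above background, and the number of arrays limits the precision. Probes well above background on at least 2 of 4 arrays of any group were kept, 37684 probes of 16842 symbols. Symbols and promoter windows came from RefSeq tables (GRCm38.p6). The 6 group means were fitted with limma 3.58.1 in R 4.3.3 and p-values adjusted by Benjamini-Hochberg over all tested probes (threshold 0.05). "Rose", "fell" and "passed" refer to this threshold. A gene was counted by its tested probe with the highest mean signal. Differences of 1 value were also tested by exact permutation. The fit was tested on simulated data.

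The members, marker lists and pathway lists were chosen with earlier results of these data known. The named genes were every member, the 5 genes nearest to Fos, Jun and Fosl1, and in each list the up to 3 that rose and fell most from S0 to S4 and all called between nsPEF and sham, except 1 target gene that is not reported here. Same-numbered sham and nsPEF arrays did not deviate together (correlations of -0.047 to 0.10 over probes), so no pairing was used. Alternatives were quantile, spike-in and detected-probe scaling, normexp (offset 50, on the median signal), the deposited log2 values, other filters, marked spots kept, centring by spot row, a plain linear model, fits of 2 groups, a replicate block, array weights, the mean of a gene's probes, and leaving out arrays.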

Additional observations from a re-analysis of the deposited data

Results flagged for a closer look

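On the dimmer Fosb probe, replicate 2 of S4 read -5.28 while the other 3 sham arrays at 4 h read -7.55 to -7.20, a gap of 0.844 of the range of the group. It was the 1 array of the 16 after 0 h on which that probe was well above background. Over the AP-1 probes 65 groups of 4 arrays were looked at in this way, and chance would mark about 1 in 20 of them, 3.25 in all.

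The change of Fosl2 over time differed between nsPEF and sham by the interaction test of limma (adjusted p = 0.0280). Its rise to 4 h was 0.29 larger after nsPEF on the log2 scale. All 4 nsPEF arrays at 4 h lay over all 4 sham arrays, where 13.8% of all probes had no overlap. The interaction was called under 9 of 13 alternatives and under 18 of 28 settings that left out arrays. The dimmer Fosl2 probe had an interaction adjusted p of 0.88 by limma.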

How the results depend on the processing

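The 26 calls of AP-1 genes between 0 h and 4 h or 24 h were made under all 14 alternative settings and all 28 settings that left out arrays, with no change of direction. The differences between nsPEF and sham were less stable. The count at 4 h was 1 by quantile normalization, by array quality weights and by the mean of a gene's probes, and 0 in the fit of only the 2 groups compared, in place of 2. The share called of all probes, or of all genes for the mean of probes, was 5.91, 3.61, 4.74 and 1.11% in that order, against 2.88%. At 24 h it was 0 by spike-in scaling, by normexp and in the fit of 2 groups, in place of 1. The share of all probes was 2.06, 2.12 and 0.0743% in that order, against 4.84%. The interaction count was 2 by spike-in scaling and by array quality weights, and 0 with normexp, with no filter, with values centred by spot row and with the mean of a gene's probes, in place of 1. With spike-in scaling 3.44% of all probes were called for the interaction and with array quality weights 7.63%, against 0.356%. The 4 settings with a count of 0 called 0.0504, 0.145, 0.406 and 1.18% in that order, the last of all genes. With arrays left out, the counts ranged from 0 to 2 at 4 h, from 0 to 2 at 24 h and from 0 to 2 for the interaction, and from 5 to 6 between S4 and S24, where Junb passed without replicate 3 or 4 of S4 (adjusted p = 0.045 and 0.023). The shares of all probes then ranged from 0.319 to 3.32%, 0.447 to 11.6%, 0.082 to 3.14% and 52.2 to 58.6% in that order. Without any 1 replicate number from 1 to 3 in all groups Fosl2 at 4 h had an adjusted p of 0.054 to 0.089. Spike-in scaling moved the median of all probes at 24 h, to 0.69 from S0 to S24, 0.65 from S4 to S24, 0.53 from E0 to E24 and 0.38 from E4 to E24. Under it Jun (0.55) and Junb (0.48) turned higher from S4 to S24, Fosl2 turned higher from E0 to E24 (0.44) and Junb from E4 to E24 (0.12). The cause of these changes was not tested. The replicate block, added only as a check since same-numbered arrays did not deviate together, gave the same counts: 2 at 4 h, 1 at 24 h and 1 for the interaction. With it 2.95, 5.18 and 0.345% of all probes were called. Array signal 2.6 to 3.6 times the local background, as the median over spots, limits what the dimmer Fosb probe can show after 0 h.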
